A study of Mus musculus with 4 samples.

Results

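Imprinted genes were followed in E14 mouse embryonic stem cells after silencing of Ogt, the enzyme that attaches O-linked N-acetylglucosamine to nuclear and cytosolic proteins. A list of 32 well known imprinted mouse genes was looked up by symbol in the deposited expression table, and 31 were found among its 20723 gene symbols. Kcnq1ot1 was not analysed here. Where a gene had several probe sets, as 4 of the 31 did, the one with the highest mean level stood for it.

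One group held 2 arrays of cells transfected with esiRNA (enzymatically prepared short interfering RNA) against Ogt, called esiOgt, and the other held 2 arrays of cells given esiRNA against GFP, called control. The cells are a line of strain Ola129, kept on gelatin with 15% serum and LIF, the cytokine that sustains self-renewal, and RNA was collected 48 h after transfection in both groups. E14 is a single line, the transfection was transient, and nothing in the labels tells whether the replicates came from separate cultures. The p-values therefore cover the spread among these 4 arrays alone, and that spread may be technical. Levels are log2 values, so that a difference of 1 is a doubling.

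An imprinted gene is transcribed mainly from the copy inherited from the mother, or mainly from that of the father. The choice is written as DNA methylation in the germ cells at control regions, and is kept through early development by proteins such as Zfp57, Trim28 and Dnmt1. Most imprinted genes lie in clusters that share a control region, and many act on fetal growth, placenta or brain. In embryonic stem cells imprints are known to be lost in some lines and cultures. The arrays read the transcript of both copies together, so the parental allele given below for each gene is background knowledge of the mouse and was not measured.

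Ogt itself read 9.73 and 10.09 in esiOgt, against 11.51 and 11.38 in control, a log2 difference of -1.54 (SE 0.17, unadjusted p = 0.00057, adjusted p = 0.674 in limma). All 11 measured markers of embryonic stem cells had mean levels above 6.42, the median over all probe sets. Of these 11, 9 were higher and 2 lower in esiOgt, and 1 (9.09%) stood at an unadjusted p under 0.05. It was Esrrb (0.31, SE 0.11, unadjusted p = 0.0487 in limma), whose groups did not overlap. Pou5f1, the marker with the largest p, read 12.43 and 12.40 in esiOgt, against 12.40 and 12.40 in control. Fibroblast markers had median levels of 6.12 and 6.07 in the esiOgt arrays, against 6.15 and 6.01 in the control arrays, with 7 of 18 above 6.42. Of these 18, 8 were higher and 10 lower. At an unadjusted p under 0.05, where 6.06% of all gene symbols stood, was 1 of the 18, Fbn1 (0.54, SE 0.15). With the mean of its probe sets Fbn1 was at 0.25 and missed that level (unadjusted p = 0.0759 in limma). Trophoblast markers were split, 8 higher and 6 lower, with 2 of 14 at that level (14.3%), Cited1 (0.64, SE 0.18) and Esx1 (0.53, SE 0.18). Primitive endoderm markers were split too, 10 higher and 6 lower, with 3 of 16 at that level (18.8%), Col4a2 (0.40, SE 0.12), Lama1 (0.34, SE 0.12) and Amn (-0.40, SE 0.13). The part of these other markers in the values of the imprinted genes was not tested.

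No imprinted gene passed an adjusted p of 0.05 in limma, and neither did any other probe set (0% of 34760). At an unadjusted p under 0.05 stood 6 of the 31 imprinted genes (19.4%), where 6.06% of all gene symbols did. Of the 6, the genes Mirg, Cdkn1c, Peg10 and Meg3 were lower in esiOgt, a direction that 2.66% of all symbols had at that level, and Zim1 and Nnat were higher, as 3.40% of all symbols were. Leaving out any single array lowered this count, and in most such fits the share of all symbols fell too. A group then holds 1 array, so these counts are not compared. Whichever array was left out, the log2 difference of Mirg stayed between -0.88 and -0.67.

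Over the 31 genes the median log2 difference was -0.07, with 14 higher and 17 lower, while the median over all symbols was 0.00. The esiOgt and control arrays did not overlap for 13 imprinted genes (41.9%), close to the 39.5% of all symbols. Both esiOgt arrays were the lower ones for 8 of the 31 (25.8%), against 19.4% of all symbols. They were the higher ones for 5 of the 31 (16.1%), against 20.0% of all symbols. With 2 arrays against 2, an exact permutation test of a single gene cannot give a p below 0.333. The median standard deviation within groups was 0.16 for the imprinted genes and 0.13 for all symbols. The mean level was at or above 6.42 for 24 of the 31 genes and below it for Airn, Dio3, Magel2, Nnat, Rian, Usp29 and Zim1.

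**Figure D1:**
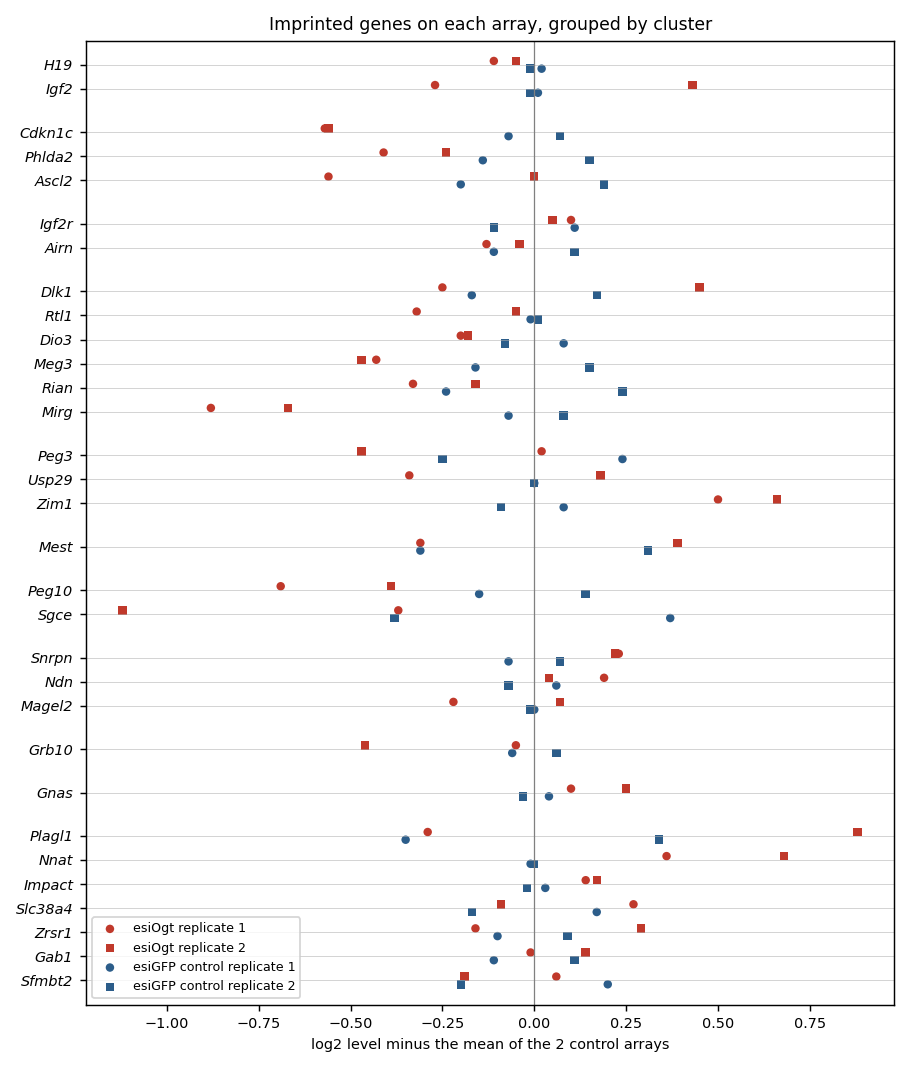
Each row is an imprinted gene, grouped by cluster, and each point an array, with the log2 level minus the mean of both control arrays on the horizontal axis. Red points are esiOgt arrays and blue points control arrays, and circles mark replicate 1 and squares replicate 2. Mirg, Cdkn1c, Meg3 and Peg10 have both red points left of both blue points, and Zim1 and Nnat have both to the right.

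The Dlk1-Dio3 region of chromosome 12 held 6 of the genes, among them Mirg, with the lowest log2 difference of the 31. From the paternal copy it gives the protein-coding genes Dlk1, Rtl1 and Dio3, and from the maternal copy a train of noncoding RNAs, Meg3, Rian and Mirg, in whose introns and flanks small nucleolar RNAs and microRNAs are encoded. All 3 maternal noncoding RNAs were lower in esiOgt, with a median log2 difference of -0.45. The 3 paternal genes stood at 0.10, -0.18 and -0.19.

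Mirg, host of microRNAs, read 6.32 and 6.53 in esiOgt, against 7.13 and 7.28 in control. Both esiOgt arrays lay below both control arrays, 1.71-fold lower on average, and this was the smallest p among the imprinted genes (log2 difference -0.77, SE 0.14, unadjusted p = 0.0043, adjusted p = 0.674 in limma). Without any single array the difference stayed between -0.88 and -0.67. Meg3, the long noncoding RNA at the head of the maternal train, read 9.56 and 9.52 in esiOgt, against 9.83 and 10.14 in control. The groups did not overlap there either (-0.45, SE 0.15, unadjusted p = 0.0392), and the difference was -0.29 without control replicate 2, the higher of the control arrays. Rian, host of small nucleolar RNAs, read 5.88 and 6.05 in esiOgt, against 5.97 and 6.45 in control, and its groups overlapped. Without control replicate 2 the difference of Rian was -0.01, against -0.25 with all arrays.

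On the paternal side Dlk1, a transmembrane ligand related to those of Notch, read 7.54 and 8.24 in esiOgt, against 7.62 and 7.96 in control. The esiOgt arrays enclosed the control arrays. Rtl1, a placental gene derived from a retrotransposon, read 6.57 and 6.84 in esiOgt, against 6.88 and 6.90 in control. Of its 5 probe sets 3 pointed lower, between -0.22 and -0.17, and the dimmer 2 stood at 0.03 and 0.10. Maternal transcripts run antisense to Rtl1, and which strand each probe set reads is not given in the sources used here. The values of Rtl1, counted here as paternal, may therefore be those of a maternal transcript. Dio3, which encodes an enzyme that inactivates thyroid hormone, read 4.93 and 4.95 in esiOgt, against 5.21 and 5.05 in control, with no overlap at a dim level.

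The start regions of the gene at the head of the maternal train and of Mirg are shown because these were its members at an unadjusted p under 0.05. They come from RefSeq on build GRCm38.p6, plus strand, with 250 bases before and 50 after the annotated start. Meg3 lies at chr12:109540746-109541045 and Mirg at chr12:109734731-109735030.
Meg3: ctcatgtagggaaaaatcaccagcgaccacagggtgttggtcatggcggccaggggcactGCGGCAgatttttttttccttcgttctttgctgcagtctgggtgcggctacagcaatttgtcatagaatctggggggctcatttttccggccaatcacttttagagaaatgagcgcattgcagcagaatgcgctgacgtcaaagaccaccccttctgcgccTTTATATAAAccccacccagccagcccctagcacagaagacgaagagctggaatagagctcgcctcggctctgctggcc
Mirg: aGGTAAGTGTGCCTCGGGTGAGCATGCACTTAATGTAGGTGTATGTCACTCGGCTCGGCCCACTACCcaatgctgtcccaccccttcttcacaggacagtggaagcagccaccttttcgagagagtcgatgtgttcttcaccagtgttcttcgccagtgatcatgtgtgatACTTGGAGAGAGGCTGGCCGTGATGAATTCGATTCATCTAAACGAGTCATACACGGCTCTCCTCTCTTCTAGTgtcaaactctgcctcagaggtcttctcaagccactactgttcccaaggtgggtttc
In the Meg3 window capitals mark matches, on either strand, to TGCCGC, a hexamer bound by Zfp57 in its methylated form, and to TATAAA, whose forward and reverse matches overlap. The window holds 1 match to the hexamer and 13 CpG dinucleotides. Meg3 has another annotated start, with a window at chr12:109545148-109545447 that is not printed. That window holds 1 CpG and 0 matches to TGCCGC or TATAAA. Among all 32851 windows 11.6% hold the hexamer and 13.6% hold TATAAA, and the median number of CpG is 7. In the Mirg window capitals mark the annotated hairpins of Mir668 and, nearer the start, Mir485, so this stretch is itself part of the microRNA cluster. Neither hexamer was found in it, and it holds 10 CpG dinucleotides. A window was found for 25 of the 31 genes, 42 windows in all, of which 9 hold TGCCGC and 10 hold TATAAA. Some windows of the same gene overlap, so these are not separate observations. The Mest windows from 30737800 and 30737803 both count for TGCCGC. The Gnas windows from 174327499 and 174327518 both count for TATAAA.

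Among the microRNA genes of the same region more were lower than higher, most of them by little. The table names 36 of the 54 microRNA genes listed for the region. Of the 36, 30 were lower and 6 higher in esiOgt, with a median log2 difference of -0.17. The table's 273 other microRNA genes, outside the imprinted lists, were split 137 higher and 136 lower, with a median of 0.00. Only 1 of the 36 stood at an unadjusted p under 0.05 (2.78%, below the 6.06% of all symbols), and 0 passed after adjustment in limma. The number lower was 18 of 36 without control replicate 2 and 24 without esiOgt replicate 1. It was 29 without esiOgt replicate 2 and 31 without control replicate 1, so it depended on which array was dropped. Same-numbered arrays deviated alike over probe sets (correlation 0.479), so dropping 1 array also unbalances what they share. The part of this in the counts was not tested. Whether these probe sets read the mature microRNA or its precursor is not stated in the labels.

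Along the region the 4 microRNA genes between Meg3 and Rian were all lower (median -0.13). Of 23 between Rian and Mirg 20 were lower (median -0.19), and of 7 inside Mirg 5 were lower (median -0.07). The 2 inside Rian were split, Mir341 at -0.33 and Mir370 at 0.08. Most of the microRNA genes were dim, with 27 of 36 below the median of all probe sets. The 9 brighter ones were lower, Mir668 by as little as -0.01, and 5 of the 9 were lower without control replicate 2.

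Mir300 read 4.43 and 4.97 in esiOgt, against 5.31 and 5.65 in control, the only one of the 36 at an unadjusted p under 0.05 (log2 difference -0.78, SE 0.24, unadjusted p = 0.029). Mir341 read 8.11 and 8.11 in esiOgt, against 8.34 and 8.53 in control (-0.33, SE 0.13, unadjusted p = 0.0592). Mir412 read 3.92 and 4.10 in esiOgt, against 4.21 and 4.49 in control (-0.34, SE 0.16, unadjusted p = 0.0962). The groups did not overlap for these genes. Mir377 read 5.08 and 5.49 in esiOgt, against 5.49 and 6.19 in control, where the groups met (-0.55, SE 0.30, unadjusted p = 0.129). The mature forms of these 4 genes, the ones with the smallest p of the list, are given from RefSeq, 5′ to 3′, with the seed (bases 2 to 8) in capitals.
mmu-miR-300-5p: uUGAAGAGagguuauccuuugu
mmu-miR-300-3p: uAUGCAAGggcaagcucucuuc
mmu-miR-341-5p: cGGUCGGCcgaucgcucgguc
mmu-miR-341-3p: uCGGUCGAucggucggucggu
mmu-miR-412-5p: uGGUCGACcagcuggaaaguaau
mmu-miR-412-3p: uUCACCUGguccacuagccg
mmu-miR-377-5p: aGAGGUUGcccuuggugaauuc
mmu-miR-377-3p: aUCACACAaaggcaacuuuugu
No seed is shared among these. Over the 68 mature sequences of the 36 genes there were 66 distinct seeds, and the shared ones joined miR-411-3p with miR-379-3p and miR-376b-5p with miR-376c-5p.

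The table also names 2 small nucleolar RNA genes of the region, which were looked up by position after values had been seen. AF357355, which lies inside Rian, read 7.63 and 7.38 in esiOgt, against 8.15 and 8.36 in control. Its difference was nearly that of Mirg (-0.75, SE 0.16, unadjusted p = 0.0071, adjusted p = 0.674 in limma), and both esiOgt arrays were lower. Without any single array it lay between -0.87 and -0.63. AF357341, beyond Rian, was dim and separated the other way by little, with 4.44 and 4.49 in esiOgt, against 4.41 and 4.39 in control.

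**Figure D2:**
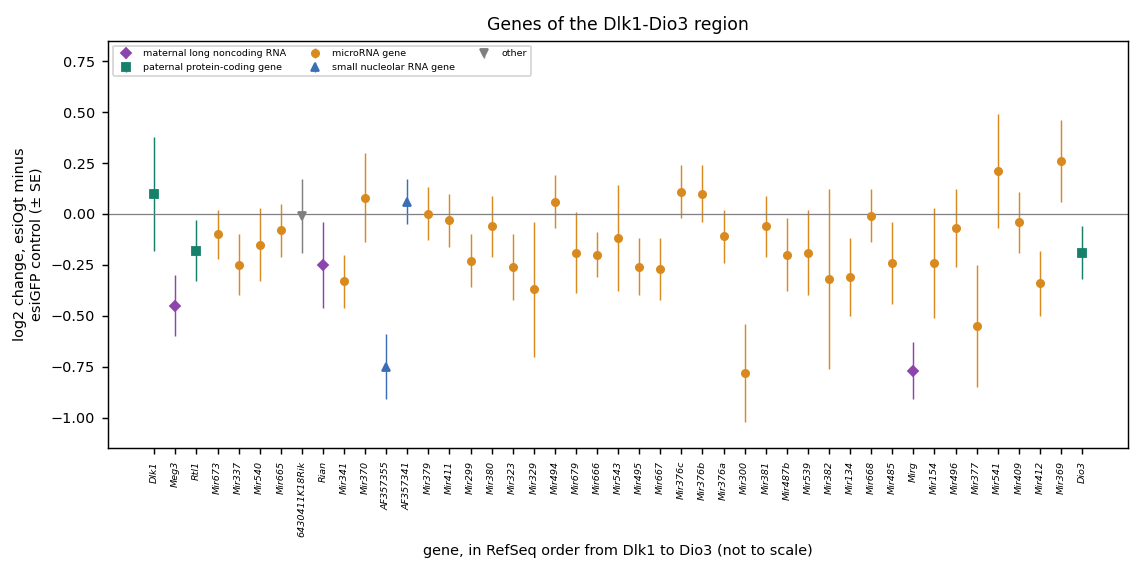
The genes of the Dlk1-Dio3 region are set out in RefSeq order, with the log2 difference of esiOgt minus control on the vertical axis and the limma standard error as bars. Diamonds are the maternal long noncoding RNAs, squares the paternal genes, circles microRNA genes, upright triangles small nucleolar RNA genes and the inverted grey triangle another RNA gene. The lowest points are Mir300 at -0.78, Mirg at -0.77 and AF357355 at -0.75, and 30 of the 36 circles lie below 0.

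The Kcnq1ot1 cluster at the end of chromosome 7 was represented by 3 genes, all lower in mean. Its maternally expressed genes limit growth or serve the placenta, and the long noncoding RNA Kcnq1ot1 of the paternal copy silences them in cis. Cdkn1c, Phlda2 and Ascl2 had log2 differences of -0.57, -0.33 and -0.28. Cdkn1c, which encodes the cyclin-dependent kinase inhibitor p57Kip2, read 7.50 and 7.51 in esiOgt, against 8.0 and 8.14 in control. It was 1.48-fold lower with little spread between replicates (SE 0.12, unadjusted p = 0.00809, adjusted p = 0.674 in limma), and lay between -0.64 and -0.50 without any single array. Phlda2, which restrains placental growth, read 12.17 and 12.34 in esiOgt, against 12.44 and 12.73 in control (SE 0.16, unadjusted p = 0.101). Its groups did not overlap, though the gap between them was smaller than the spread of the control arrays. Ascl2, a trophoblast transcription factor, read 8.31 and 8.87 in esiOgt, against 8.67 and 9.06 in control, with overlap.

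The neighbouring pair H19 and Igf2 differed little between groups in mean. Igf2 encodes a fetal growth factor from the paternal copy, and H19 is a noncoding RNA of the maternal copy. H19 read 9.89 and 9.95 in esiOgt, against 10.02 and 9.99 in control (95% confidence interval of the difference -0.39 to 0.23), with both esiOgt arrays just below both control arrays, and its other probe set stood at -0.01. Igf2 read 7.88 and 8.58 in esiOgt, against 8.16 and 8.14 in control. The esiOgt arrays of Igf2 lay on either side of the control arrays, and the interval, -0.62 to 0.78, allows a sizeable shift in either direction.

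Peg10 and Sgce, neighbours on chromosome 6 that are both transcribed from the paternal copy, were both lower. Peg10, a placental gene derived from a retrotransposon, read 11.92 and 12.22 in esiOgt, against 12.46 and 12.75 in control. It was 1.45-fold lower with no overlap (log2 difference -0.53, SE 0.18, unadjusted p = 0.0378, adjusted p = 0.674 in limma). Sgce, which encodes epsilon-sarcoglycan of the cell membrane, read 9.00 and 8.25 in esiOgt, against 9.74 and 8.99 in control. Its difference was larger, at -0.74, and so was its error (SE 0.37, unadjusted p = 0.112 in limma), and its groups overlapped. The array of replicate 2 was the lower one in each group for Sgce and the higher one in each group for Peg10. Without any single array Peg10 lay between -0.69 and -0.38 and Sgce between -1.12 and -0.37.

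In the Peg3 cluster of proximal chromosome 7 the maternal gene Zim1 was higher without overlap, and the paternal genes Peg3 and Usp29 overlapped between groups. Zim1, a zinc finger gene of the maternal copy, read 6.09 and 6.25 in esiOgt, against 5.67 and 5.50 in control. It was 1.5-fold higher with no overlap, at a dim level (log2 difference 0.59, SE 0.14, unadjusted p = 0.0111, adjusted p = 0.674 in limma). Peg3, a zinc finger gene of the paternal copy, read 8.97 and 8.48 in esiOgt, against 9.19 and 8.70 in control. Usp29, a ubiquitin protease gene that starts back to back with Peg3, read 4.74 and 5.26 in esiOgt, against 5.08 and 5.08 in control. In RefSeq the start windows of these neighbours share 263 bases.

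The Snrpn cluster, also on chromosome 7 and expressed from the paternal copy, matches the human region lost in Prader-Willi syndrome. Snrpn, which encodes a spliceosomal protein, read 10.56 and 10.55 in esiOgt, against 10.26 and 10.40 in control. The groups did not overlap, and the difference of 0.22 had an interval from -0.11 to 0.56. Ndn, a MAGE family gene, read 8.26 and 8.11 in esiOgt, against 8.13 and 8.0 in control. Magel2, of the same family, read 5.54 and 5.83 in esiOgt, against 5.76 and 5.75 in control. Neither of these separated the groups.

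On chromosome 17 the receptor gene Igf2r, which clears Igf2 and is transcribed from the maternal copy, read 10.09 and 10.04 in esiOgt, against 10.10 and 9.88 in control. Airn, the noncoding RNA of the paternal copy that runs antisense to Igf2r, read 5.62 and 5.71 in esiOgt, against 5.64 and 5.86 in control. Both overlapped, and the second probe set of Airn stood at 0.02. The intervals were -0.29 to 0.44 for Igf2r and -0.46 to 0.29 for Airn, short of a doubling or a halving.

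Grb10 and Gnas use different parental copies by isoform or tissue. Grb10, an adaptor that dampens insulin receptor signals, read 8.10 and 7.69 in esiOgt, against 8.09 and 8.21 in control. Gnas, which encodes the stimulatory G protein subunit, read 8.99 and 9.14 in esiOgt, against 8.93 and 8.86 in control. The esiOgt arrays were above the control arrays for this probe set of Gnas, at 0.17, while its second probe set stood at -0.06.

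Of the remaining genes, all of them paternal, Nnat had the clearest difference. Nnat, a membrane proteolipid gene of neurons, read 6.46 and 6.78 in esiOgt, against 6.09 and 6.10 in control. It was 1.44-fold higher with no overlap, at a level near the array median (log2 difference 0.52, SE 0.16, unadjusted p = 0.0254, adjusted p = 0.674 in limma). Impact, a regulator of the amino acid sensor Gcn2, read 11.45 and 11.48 in esiOgt, against 11.34 and 11.29 in control, also without overlap, but the difference was only 0.16.

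The other 6 overlapped between groups. Mest, a hydrolase family gene of chromosome 6, read 10.31 and 11.01 in esiOgt, against 10.31 and 10.93 in control. Plagl1, which encodes the zinc finger factor Zac1, read 6.06 and 7.23 in esiOgt, against 6.0 and 6.69 in control. For both the array of replicate 2 was the higher in each group, by more than the groups differed. Slc38a4, an amino acid transporter gene, read 12.64 and 12.28 in esiOgt, against 12.54 and 12.20 in control, and there the array of replicate 1 was the higher in each group. Zrsr1, a splicing factor retrogene, read 6.32 and 6.77 in esiOgt, against 6.38 and 6.57 in control. Gab1, a docking protein gene of growth factor receptors, read 11.02 and 11.17 in esiOgt, against 10.92 and 11.14 in control. These 2 also had their higher value on replicate 2 in each group. Sfmbt2, a Polycomb-related gene, read 9.94 and 9.69 in esiOgt, against 10.08 and 9.68 in control.

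Grouped by expressed allele, 7 of 9 maternal genes were lower in esiOgt, with a median log2 difference of -0.28, and 4 of the 9 stood at an unadjusted p under 0.05 (44.4%, against 6.06% of all symbols). Of these Mirg, Cdkn1c and Meg3 were lower, and Zim1 was higher. Of 20 paternal genes 9 were lower and 11 higher, with a median of 0.05, and 2 stood at that level (10.0%), Peg10 lower and Nnat higher. The maternal genes Mirg, Meg3, Rian, Cdkn1c, Phlda2 and Ascl2 come from the Dlk1-Dio3 and Kcnq1ot1 clusters, so they share control regions and are not 6 separate observations. Several maternal differences were smaller without control replicate 2. Without that array Meg3 stood at -0.29 (-0.45 with all arrays), Phlda2 at -0.19 (-0.33), Ascl2 at -0.08 (-0.28) and Rian at -0.01 (-0.25). Mirg then stood at -0.7, Cdkn1c at -0.5, Zim1 at 0.5, H19 at -0.1 and Igf2r at -0.03. The share of 44.4% holds for the fit with all arrays. The difference between alleles was not tested.

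**Figure D3:**
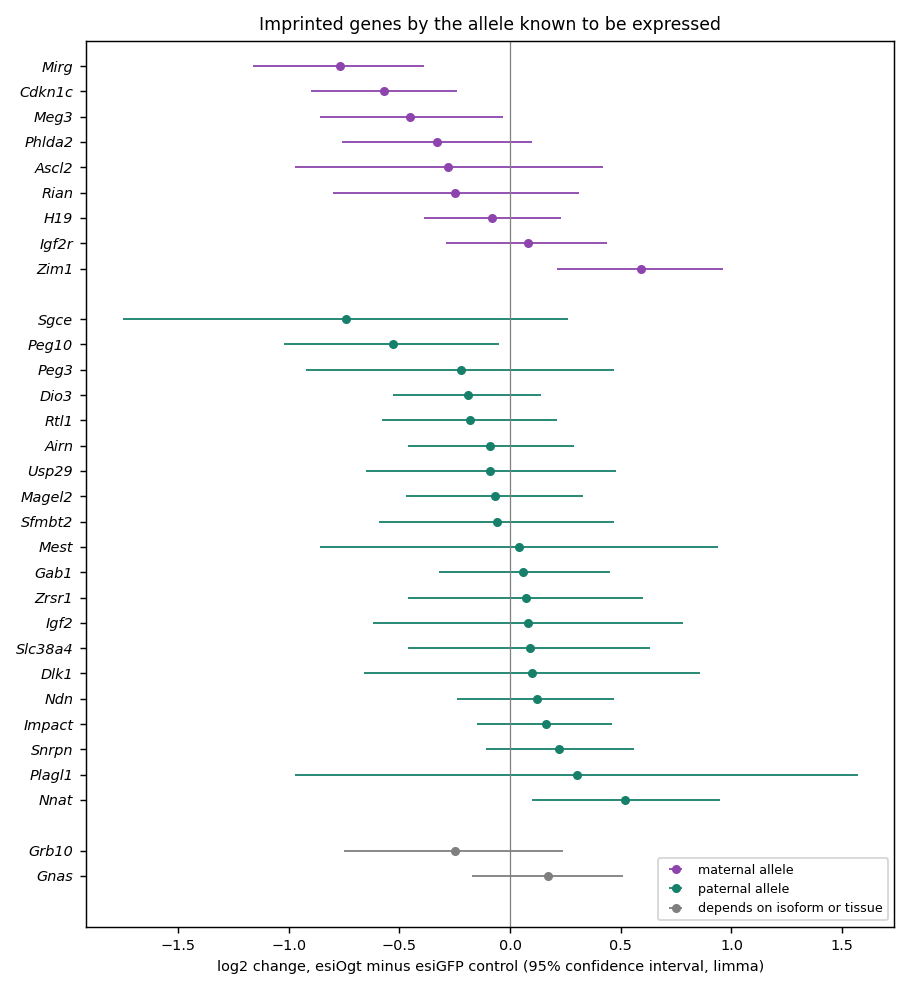
The log2 difference of esiOgt minus control is plotted for each imprinted gene with its 95% confidence interval from limma, maternal genes at the top, paternal genes in the middle and Grb10 and Gnas at the bottom. The intervals of Mirg, Cdkn1c, Meg3 and Peg10 lie below 0, and those of Zim1 and Nnat above 0, before adjustment for the number of genes tested.

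A second list of 56 further imprinted genes was looked up, and 49 were found. There were 16 higher and 33 lower ones (median log2 difference -0.06), where all symbols had 10601 higher and 10122 lower. This split was not tested with an array left out. Of the 49, 3 stood at an unadjusted p under 0.05 (6.12%, near the 6.06% of all symbols). Gatm, a creatine synthesis gene, was at 0.61 (SE 0.18, unadjusted p = 0.0248) and Commd1, a gene of copper handling, at 0.44 (SE 0.14, unadjusted p = 0.0296). Zfp264, of the Peg3 region, was at -0.43 (SE 0.16, unadjusted p = 0.05 after rounding up). H13, which encodes signal peptide peptidase, was at 0.30 and just missed that level (SE 0.11, unadjusted p = 0.0534). Of 4 microRNA genes in other imprinted clusters (Mir296, Mir298, Mir335 and Mir483) the groups overlapped for each, between -0.15 and -0.02.

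Among a list of 30 genes drawn up around the setting, upkeep and erasure of imprints, which includes the demethylation genes Tet1, Tet2, Tet3 and Tdg, the mean was higher in esiOgt for 23 and lower for 7 (median log2 difference 0.13), and 0 passed after adjustment in limma. Kdm1b, the demethylase that oocytes need to set maternal imprints, read 8.06 and 8.27 in esiOgt, against 7.69 and 7.67 in control (0.48, SE 0.13, unadjusted p = 0.0191). Ehmt1, a methyltransferase of histone H3, was at 0.32 (unadjusted p = 0.0482), its partner gene Ehmt2 at 0.25 (unadjusted p = 0.126) and Dppa3, a factor that protects imprints in the zygote, at 0.22 (unadjusted p = 0.121). For these 4 both esiOgt arrays were above both control arrays, as for 11 of the 30 in all, and 0 of the 30 separated the other way. That is 36.7% without overlap, all of them higher. Of all symbols 39.5% were without overlap, 20.0% higher and 19.4% lower. In mean, 10601 of all symbols were higher and 10122 lower. Without control replicate 1, and likewise without esiOgt replicate 2, the number higher was 16 of 30. At an unadjusted p under 0.05 stood 2 of the 30 (6.67%), near the share of all symbols.

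**Figure D4:**
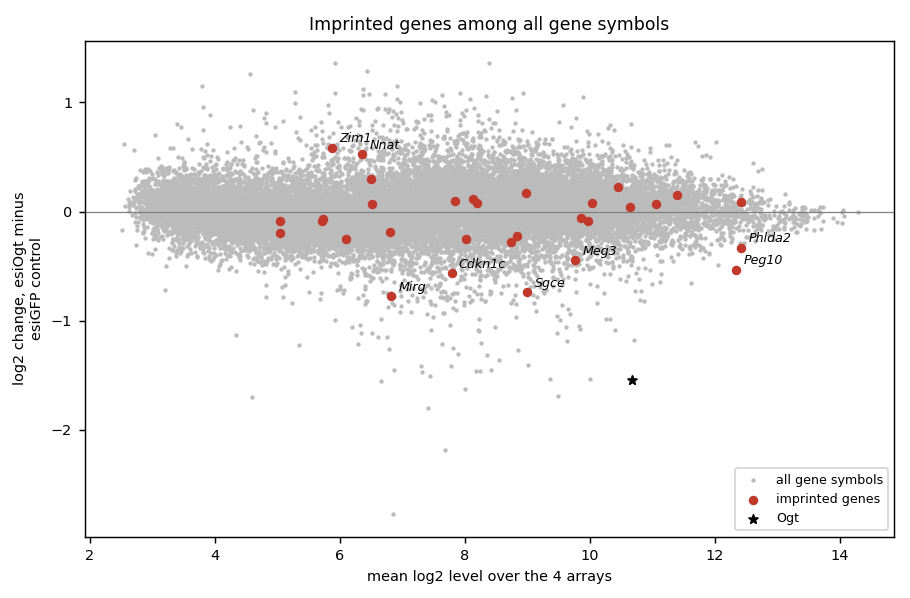
The mean log2 level over the 4 arrays is set against the log2 difference of esiOgt minus control for all 20723 gene symbols in grey, the 31 imprinted genes in red and Ogt as a star. The 8 imprinted genes with the smallest p are named, and each has an adjusted p above 0.05. Peg10 and Phlda2, among the brightest, lie at the lower edge of genes of like level, and Ogt stands at -1.54.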

How the data were processed

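Total RNA was measured on 4 one-colour arrays, 2 per group, from 150 ng of RNA amplified and labelled with WT kits, per the labels' protocols. The deposited values are log2 expression values made with RMA, per the submitters' processing notes, which also name limma. The authors' deposited table adds an unadjusted p-value and a log2 fold change per probe set. The sources used here name no array type, annotation release, build or scan date, so probe coordinates are not printed and batches could not be examined. Precision is limited by the number of arrays.

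All 34760 probe sets were fitted in limma 3.58.1 (lmFit, then eBayes) under R 4.3.3. Group was the sole term, and p-values were adjusted by Benjamini-Hochberg over the whole table. The fit gave the authors' deposited p-values to within 4.84e-08. It has 2 residual degrees of freedom, 4.38 after moderation, and was tested on simulated data. The simulated noise was independent between arrays, whereas deviations of same-numbered arrays here correlated at 0.479. The simulation therefore does not bear on that dependence. For gene counts each of the 20723 symbols is represented by its brightest probe set on average. All members are named with the values of every array. Standard errors and p-values go with the 8 of smallest p. Of other lists up to 4 genes of smallest p are named. The imprinted genes and lists were chosen with earlier results of these data known. Sequences, chromosomes and gene order are RefSeq's on GRCm38.p6, matched by symbol. The alternatives were array centring, quantile normalization, filters on level and naming, a variance trend, a robust prior, a replicate block, probe set means, other thresholds and leaving out each array. The value table held the same values and was not used further.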

Additional observations from a re-analysis of the deposited data

How the results depend on the processing

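No imprinted gene passed an adjusted p of 0.05 under any alternative fit, and 0 passed 0.1 in the fit reported. With all arrays 6 stood at an unadjusted p under 0.05 and 2 at 0.01, against between 2 and 5 under 0.05 with an array left out. With an array left out a group holds 1 array, and in most such fits the share of all symbols fell too. The lower counts are therefore not compared with that of all arrays, nor read as particular to imprinted genes. For the level of 0.01 no share of all symbols is given here. Array centring, quantile normalization, a variance trend, a robust prior and probe set means also gave a count of 6 at an unadjusted p under 0.05. The share of all symbols at an unadjusted p under 0.05 ran from 5.66% with centring to 7.9% with probe set means. The filter on level kept 24 of the 31 genes, with 4 at that level (16.7%, against 8.39% of all symbols kept). It also kept 9 microRNA genes, 9 of them lower. With an array left out, between 18 and 31 of the 36 microRNA genes were lower. Without a single array the log2 difference of Zfp42 lay between -0.10 and 0.49, of Mir298 between -0.33 and 0.03, of Mir483 between -0.06 and 0.01 and of Mir296 between -0.17 and 0.13. The sign of 0 of the 8 imprinted genes with the smallest p, and of 14 of the other 23, changed without some array. With the replicate number as a replicate block 8 imprinted genes stood at an unadjusted p under 0.05, with Phlda2 (unadjusted p = 0.0371) and Sgce (unadjusted p = 0.00259) added, as did 13.4% of all symbols. The labels do not say that numbers pair the arrays, though the deviations of same-numbered arrays correlated at 0.479 over probe sets. The cause of these shifts was not tested. Dim probe sets, most microRNA genes among them, limit what can be seen.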
